A study of Homo sapiens with 4 samples.

Results

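Transcripts of the 10 genes that build and restrain the hypoxia-inducible factors (HIF) were followed in spheres of U87MG, an established cell line from a human glioblastoma. They are the alpha subunits HIF1A, EPAS1 and HIF3A, the beta subunits ARNT and ARNT2, the prolyl hydroxylases EGLN1, EGLN2 and EGLN3, the asparaginyl hydroxylase HIF1AN and the ubiquitin ligase subunit VHL. They were chosen by gene name, and all 10 were found among the 60617 genes listed. Untreated spheres (2 libraries) were compared with spheres given abemaciclib, a small-molecule inhibitor of CDK4 and CDK6 (2 libraries), all at the labelled time of 14 days. The medium was DMEM/F12 in both groups, with N2, 2% B27, and EGF and bFGF each at 20 ng/ml. Neither the dose, the oxygen tension nor any vehicle in the untreated spheres was given in the sources used here.

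A HIF is a pair of 1 alpha and 1 beta subunit that binds DNA at hypoxia response elements and switches on genes of glycolysis, blood vessel growth and acid handling. When oxygen is present, the EGLN enzymes hydroxylate prolines of the alpha subunit, the VHL ligase binds the hydroxylated protein, and the proteasome destroys it. HIF1AN, also called FIH, hydroxylates an asparagine near the end of the alpha subunit and so blocks the binding of the coactivators EP300 and CREBBP. Both kinds of hydroxylase need oxygen, iron and 2-oxoglutarate. In glioblastoma the pathway is known from the hypoxic zones of the tumour and from the upkeep of stem-like cells. Because most of this control acts on protein, the transcript levels given here do not measure HIF protein, its hydroxylation or its activity.

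The libraries held 23684260 to 33418075 expected counts, and 3 counts in a library corresponded to 0.0886 to 0.125 CPM (here always the count relative to the library total after TMM scaling, the trimmed mean of M-values). The labels do not say that replicates came from separate cultures, so the spread behind the p-values is that of these libraries alone and may be technical. Of 7 glioma line markers that passed the low-count filter, 7 were lower after the drug, by 1.07-fold for S100A6 to 4.07-fold for CHI3L1. Across all tested genes 39.3% were lower and 38.0% higher (edgeR adjusted p under 0.05). VIM went from 5964 to 4369 CPM, while GFAP had only 4 to 10 counts in a library. CDKN2A had no count in any library and MTAP and CDKN2B at most 1, and the loss of this locus is a known feature of U87MG. Summed endothelial markers lay at 28.4 and 30.7 CPM untreated and 30.2 and 30.7 CPM after the drug, but single markers moved apart. PECAM1 fell from 9.78 to 1.14 CPM, while KDR (8.39 to 14.97 CPM), ERG (0.823 to 2.60 CPM) and VWF (4.54 to 6.04 CPM) rose. Of the 12 markers 7 passed the low-count filter, and TEK, EMCN and ROBO4 among these did not pass the test. CDH5, CLDN5, TIE1, FLT1 and ESAM did not pass the filter and had at most 8 counts in a library. Summed leukocyte and microglia markers went from 525 and 516 to 1108 and 1080 CPM (4 of 12 tested, 2 higher and 2 lower). CD68 made up nearly all of that sum (508 to 1087 CPM), and AIF1 was at 0 in all libraries. Summed epithelial markers went from 20.6 and 19.0 to 11.2 and 11.1 CPM (6 of 10 tested, 3 higher and 2 lower, GRHL2 at 0). Neuronal ones went from 239.8 and 237 to 122 and 116 CPM (7 of 10 tested, 1 higher and 4 lower, INA at 0). Mitochondrially encoded genes took 4.27% and 4.66% of the untreated counts and 11.8% and 11.7% after the drug. Of 5 noncoding RNAs used as signs of RNA quality, 4 were lower and 1 higher. MALAT1 fell 2.39-fold, RN7SK 3.24-fold, RN7SL1 2.64-fold and KCNQ1OT1 2.21-fold, while NEAT1 rose 1.24-fold. The part of these shifts in the results below was not tested, and in bulk RNA a smaller share of cells and less RNA per cell cannot be told apart.

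Most of the pathway's own transcripts moved, but by small amounts. Of the 10 genes, 9 passed the filter on low counts. Among these, 6 fell, 2 rose and 1 did not pass the test (edgeR quasi-likelihood test, adjusted p under 0.05 by Benjamini-Hochberg over 17207 genes). Across all tested genes 77.3% passed that threshold, 39.3% lower and 38.0% higher, so 8 called genes of 9 is close to the background. Untreated and treated libraries were separate in 8 of the 9 genes, against 87.9% of all tested genes. HIF3A was the 1 member that changed at least 2-fold, as did 31.2% of all tested genes.

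**Figure D1:**
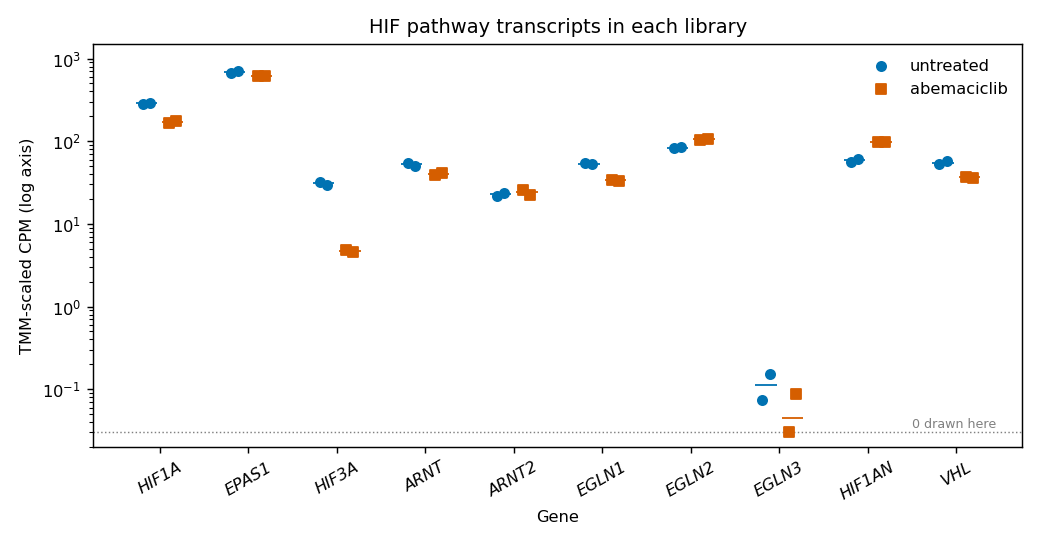
TMM-scaled CPM on a log axis for each of the 10 genes, with 1 point per library (circles untreated, squares abemaciclib) and a short line at each group's mean. HIF3A shows the widest gap between the groups (31.01 to 4.66 CPM), and EGLN3 lies below 0.2 CPM in all libraries.

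Per kilobase of exon, EPAS1 was the most abundant of these transcripts in both groups and HIF1A came next. In the untreated libraries EPAS1 stood at 94.6 ± 4.49 CPM per kilobase (SD, n = 2) and HIF1A at 55.8 ± 1.61. VHL (13.0 ± 0.792) and EGLN2 (12.7 ± 0.100) followed and overlapped each other. Below them, without overlap between neighbours, came ARNT (8.08 ± 0.503), EGLN1 (7.39 ± 0.183), HIF1AN (4.19 ± 0.236), HIF3A (3.70 ± 0.236) and ARNT2 (2.95 ± 0.182). EGLN3 was last at 0.0154 ± 0.00756. After abemaciclib the order per kilobase was EPAS1 (84.7 ± 0.0174), HIF1A (33.2 ± 1.57), EGLN2 (16.0 ± 0.0592), VHL (8.64 ± 0.120), HIF1AN (7.08 ± 0.0430), ARNT (6.15 ± 0.157), EGLN1 (4.61 ± 0.0488), ARNT2 (3.11 ± 0.286), HIF3A (0.557 ± 0.0195) and EGLN3. No neighbours overlapped there. HIF1AN had moved up past ARNT and EGLN1 in that order, and HIF3A had moved down past ARNT2. The order depends on the length taken for each gene. With the longest transcript in place of all exons, EGLN2 exceeded VHL in the untreated libraries and HIF3A exceeded HIF1AN there, and ARNT exceeded HIF1AN after the drug.

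HIF1A encodes the alpha subunit that drives the acute response and most glycolytic targets (ENSG00000100644, GRCh38 chromosome 14, 61695513 to 61748259, plus strand). It stood at 282 and 293 CPM without the drug and at 165 and 177 CPM after abemaciclib. Both treated libraries lay below both untreated ones, and the transcript fell by 0.75 ± 0.03 (SE) on the log2 scale, 1.68-fold (edgeR adjusted p = 4.38e-18). EPAS1, which encodes HIF-2 alpha, a subunit tied to prolonged hypoxia and to glioma stem-like cells, lies on chromosome 2 (ENSG00000116016, 46293667 to 46386703, plus strand). Its libraries read 667 and 714 CPM untreated and 618 and 618 CPM treated. The groups did not overlap, but the fall was small, 0.16 ± 0.03 on the log2 scale (edgeR adjusted p = 4.28e-05), and it was 0.11 when libraries were scaled by their totals alone. EPAS1 is strongly expressed in endothelium, while the sample titles name only U87MG spheres. The endothelial markers given above moved both ways, and their part in the fall of EPAS1 was not tested.

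HIF3A encodes an alpha subunit that lacks the C-terminal activation domain of HIF1A and EPAS1, and several of its splice forms restrain HIF (ENSG00000124440, chromosome 19, 46297046 to 46343433, plus strand). Its transcript is known to be induced by hypoxia. Of the 9 tested genes it moved furthest, from 32.4 and 29.6 CPM untreated to 4.78 and 4.55 CPM after the drug. That is 875 and 969 counts against 115 and 154, with no overlap. The log2 fold change was -2.74 ± 0.10, a 6.66-fold fall (edgeR adjusted p = 5.33e-22), and 4.13% of all tested genes had a lower value. The release used for positions lists 19 transcripts of HIF3A, and the gene-level counts do not show which of them fell.

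The shares of the 3 alpha subunits in their summed transcripts did not overlap between the groups. Taken singly, 87.9% of all tested genes did not overlap either. EPAS1 gained share while its own level fell, because HIF1A and HIF3A fell further. Per kilobase, HIF1A made up 36.5% and 36.0% of alpha transcripts without the drug and 27.4% and 28.7% with it, and EPAS1 61.0% and 61.8% against 72.1% and 70.8%. HIF3A held 2.58% and 2.24% untreated and 0.486% and 0.454% treated. The ratio of EPAS1 to HIF1A was 1.67 and 1.72 untreated and 2.64 and 2.47 treated, a log2 difference of 0.59. The ratios did not overlap, and the exact permutation test gave p = 0.333 (two-sided), the smallest that 2 libraries against 2 allow, so it cannot pass the threshold.

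**Figure D2:**
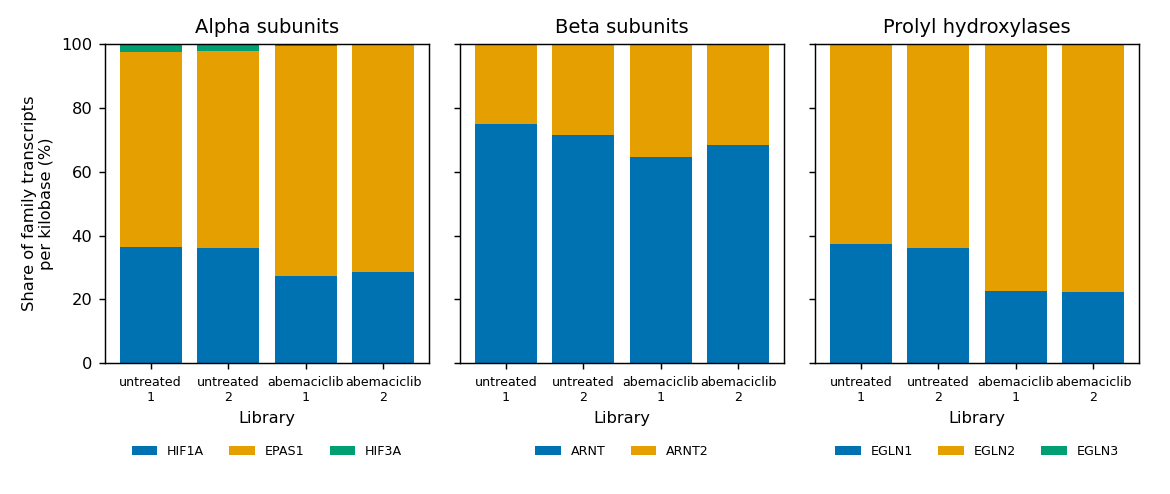
Share of each gene in its family's transcripts per kilobase (%, exon union length), as stacked bars for the 4 libraries. In both treated libraries EPAS1 takes a larger share of the alpha subunits (70.8% to 72.1%), though its own level was lower. EGLN2 takes a larger share of the prolyl hydroxylases there (77.4% to 77.7%).

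The beta subunits are the constitutive partners, and ARNT also pairs with the dioxin receptor AHR. ARNT (ENSG00000143437, chromosome 1, 150809705 to 150876768, minus strand) read 54.96 and 50.3 CPM untreated and 39.4 and 40.8 CPM treated. All treated values were the lower ones, with a fall of 0.39 ± 0.05 on the log2 scale (edgeR adjusted p = 9.48e-08). ARNT2, its relative that is mostly made in neural tissue (ENSG00000172379, chromosome 15, 80404350 to 80597937, plus strand), read 21.8 and 23.8 CPM untreated and 25.6 and 22.5 CPM treated. These groups overlapped and the change did not pass the threshold (0.07 ± 0.08, edgeR adjusted p = 0.432), and without abemaciclib replicate 1 its sign turned (-0.0091). The ratio of ARNT2 to ARNT per kilobase was 0.334 and 0.398 untreated and 0.548 and 0.464 treated, without overlap (log2 difference 0.47, exact permutation p = 0.333, the smallest possible).

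Among the prolyl hydroxylases EGLN1 fell and EGLN2 rose. EGLN1, or PHD2, is the main oxygen sensor that sets HIF1A protein and is itself a hypoxia-induced gene (ENSG00000135766, chromosome 1, 231363751 to 231425044, minus strand). It went from 54.6 and 52.7 CPM to 33.8 and 33.3 CPM, which was -0.68 ± 0.05 on the log2 scale (edgeR adjusted p = 3.24e-13). EGLN2, or PHD1, is not known as a hypoxia-induced gene (ENSG00000269858, chromosome 19, 40798996 to 40808433, plus strand). It went the other way, from 83.3 and 84.2 CPM to 104.7 and 105 CPM (0.33 ± 0.04, edgeR adjusted p = 2.55e-09). Neither gene's groups overlapped. The readthrough gene RAB4B-EGLN2 shares exons with EGLN2, and its expected counts (14.6 and 24.6 untreated, 2.14 and 37.5 treated) were small beside the 2248 to 3566 counts of EGLN2.

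EGLN3, or PHD3, is usually among the hydroxylases most strongly induced by hypoxia (ENSG00000129521, chromosome 14, 33924231 to 34462774, minus strand). Here it had 2 and 5 counts untreated and 0 and 3 counts after abemaciclib, which is close to the limit of detection in all libraries, and it did not pass the filter. The untreated over treated ratio of scaled counts was 2.26 with a 95% counting interval of 0.517 to 13.6 (exact Clopper-Pearson), so no difference was detectable at this depth. Without the filter its edgeR adjusted p was 0.542. In the same untreated libraries CA9, another hypoxia-induced gene, stood at 605 and 522 CPM. SPTSSA, which lies inside the long annotated extent of EGLN3 on the same strand, had 538 to 1351 counts. The opposite-strand EGLN3-AS1 was at 0 in all libraries.

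With EGLN3 near 0, the family consisted of EGLN1 and EGLN2. EGLN2 made up 62.7% and 63.7% of EGLN transcripts per kilobase without the drug and 77.4% and 77.7% with it. The EGLN1 to EGLN2 ratio went from 0.594 and 0.567 to 0.292 and 0.286, a log2 difference of -1.01 (exact permutation p = 0.333, the smallest possible). With the longest transcript as length the ratio was 0.352 untreated and 0.175 treated, and the log2 difference was the same because the length cancels. Summed EGLN over summed alpha transcripts was 0.135 and 0.127 untreated and higher in both treated libraries, at 0.175 and 0.172 (log2 difference 0.41, exact permutation p = 0.333, the smallest possible). In these sums the length does not cancel. The log2 difference was 0.49 with the longest transcript and 0.36 without length scaling.

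HIF1AN was the other hydroxylase that rose (ENSG00000166135, chromosome 10, 100529072 to 100559998, plus strand). Its libraries read 56.2 and 60.8 CPM untreated and 98.3 and 99.1 CPM treated, 0.75 ± 0.04 on the log2 scale or 1.68-fold (edgeR adjusted p = 1.37e-16). NDUFB8 overlaps it on the opposite strand and did not pass the threshold (56.2 to 59.5 CPM, 0.08 ± 0.05, edgeR adjusted p = 0.103). EP300 and CREBBP, the coactivators whose contact with HIF it blocks, were each slightly lower (-0.31 ± 0.05 and -0.22 ± 0.06). These 2 were named after their values were seen.

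VHL, the subunit that recognises hydroxylated alpha chains, lies on chromosome 3 (ENSG00000134086, 10141008 to 10152220, plus strand). It read 52.3 and 57.0 CPM untreated and 36.8 and 36.0 CPM treated. The groups stood apart, with a fall of 0.59 ± 0.05 on the log2 scale (edgeR adjusted p = 1.44e-11). Genes listed around its ligase moved both ways, but those that fell were conjugating enzymes or deubiquitinases and not subunits of the ligase. Of 12 tested genes of the ligase and its ubiquitin and NEDD8 machinery, 6 were higher and 4 lower and 2 did not pass (83.3% passed, against 77.3% of all tested genes), and their median log2 fold change was 0.12 against -0.01 for all tested genes. CUL2, the scaffold of the ligase, rose from 22.7 and 23.4 to 42.2 and 43.9 CPM (0.90 ± 0.06), and NEDD8, the ubiquitin-like protein that activates cullins, rose by 0.65 ± 0.04. The deubiquitinase USP20, which acts on HIF1A protein (-0.57 ± 0.05), and the ubiquitin-conjugating enzyme UBE2D3 (-0.37 ± 0.03) fell. The elongins ELOB (0.22 ± 0.05) and ELOC (0.39 ± 0.05), which hold VHL to CUL2, rose, while RBX1 did not pass the threshold (0.02 ± 0.06). These 3 were named after their values were seen.

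**Figure D3:**
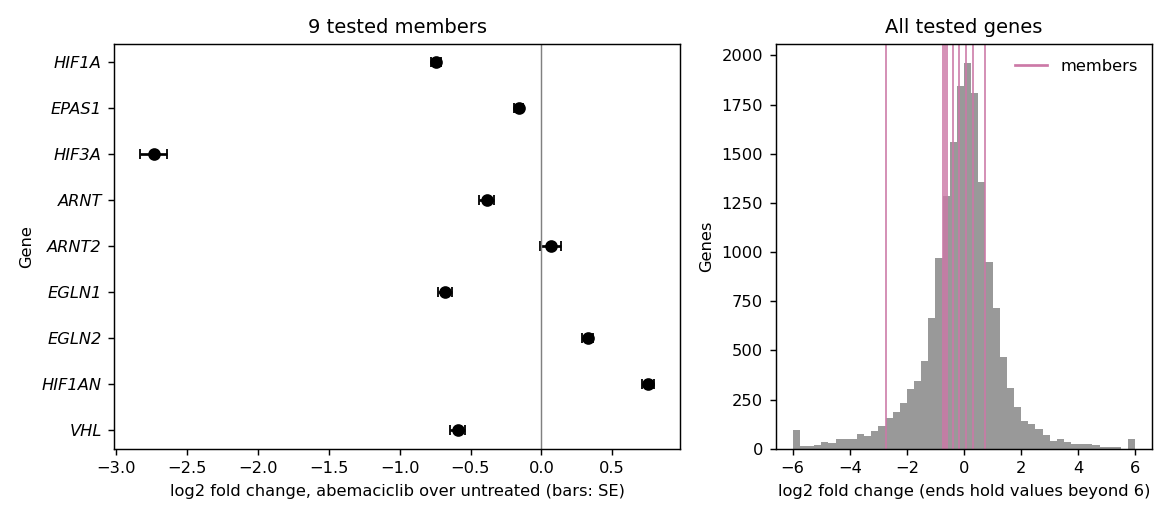
Left, log2 fold change of the 9 tested genes, abemaciclib over untreated, with bars of 1 SE. Right, the number of all 17207 tested genes in bins of log2 fold change, with lines at the 9 genes. HIF3A lies at -2.74, and the other 8 run from -0.75 for HIF1A to 0.75 for HIF1AN.

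HIF1A-AS1 is a long noncoding RNA read from the strand opposite HIF1A. It had 1 count over both untreated libraries, then 19 and 21 counts in the treated ones. It passed the low-count filter only through the treated libraries, where it is high, so these values are a description with no test. At 40 counts in all it stayed far below the 3983 and 5991 counts of HIF1A in those libraries. The libraries were made with a stranded kit, but whether the counting used the strand is not known from the sources used here, so reads of the pair may not be fully told apart. HIF1A-AS3 had at most 2 counts in a library, and the VHL-like gene VHLL was at 0.

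A hypoxia response element has the core ACGTG or GCGTG. RefSeq promoter windows (GRCh38.p14), of which the 250 bases before the RefSeq start were searched on both strands for these letters, were matched for 8 of the 10 genes. That start is not always the edge of the gene given above. It lies 2757 bases inside the GENCODE extent of EGLN1, 511700 inside that of EGLN3, 195 inside that of EGLN2, 3740 inside that of EPAS1, 6871 inside that of HIF1AN and 169 inside that of ARNT, and at or within 4 bases of it for HIF1A and HIF3A. The gene-level counts do not show which start was used. The windows are shown for the member that fell furthest and for the 3 prolyl hydroxylases, of which EGLN1 fell, EGLN2 rose and EGLN3 was near 0, with each match in capitals, 5′ to 3′ on the gene's strand. The windows are chr19:46296792-46297041, plus strand for HIF3A, chr1:231422288-231422537, minus strand for EGLN1, chr19:40798941-40799190, plus strand for EGLN2 and chr14:33951075-33951324, minus strand for EGLN3.
HIF3A: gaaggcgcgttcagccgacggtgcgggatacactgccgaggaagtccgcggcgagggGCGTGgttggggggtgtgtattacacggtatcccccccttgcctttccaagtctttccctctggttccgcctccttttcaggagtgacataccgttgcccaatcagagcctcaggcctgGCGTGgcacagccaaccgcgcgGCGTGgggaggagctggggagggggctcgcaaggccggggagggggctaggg
EGLN1: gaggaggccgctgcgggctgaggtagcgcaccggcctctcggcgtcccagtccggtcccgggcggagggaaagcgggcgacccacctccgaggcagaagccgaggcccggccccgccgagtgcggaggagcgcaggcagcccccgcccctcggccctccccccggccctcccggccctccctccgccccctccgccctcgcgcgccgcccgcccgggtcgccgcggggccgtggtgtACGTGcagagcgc
EGLN2: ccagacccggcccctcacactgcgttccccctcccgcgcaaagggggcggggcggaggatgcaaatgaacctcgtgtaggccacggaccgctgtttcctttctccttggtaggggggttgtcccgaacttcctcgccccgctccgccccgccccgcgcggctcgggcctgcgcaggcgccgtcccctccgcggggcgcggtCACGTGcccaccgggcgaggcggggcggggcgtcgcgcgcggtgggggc
EGLN3: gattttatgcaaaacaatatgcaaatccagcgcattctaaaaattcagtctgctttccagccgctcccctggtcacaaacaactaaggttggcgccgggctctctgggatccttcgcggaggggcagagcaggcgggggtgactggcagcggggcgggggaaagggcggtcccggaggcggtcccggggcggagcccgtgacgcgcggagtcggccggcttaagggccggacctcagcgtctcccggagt

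HIF3A held 3 matches, all GCGTG, which began 193, 74 and 52 bases before the RefSeq start. EGLN1 held 1, an ACGTG that began 13 bases before its RefSeq start. In EGLN2 the 2 matches overlap, since CACGTG reads ACGTG on both strands, and they began 49 and 48 bases before that of EGLN2. In EGLN3, ARNT and HIF1AN these letters were not in the window, and HIF1A and EPAS1 held 1 GCGTG each. A match stood in 5 of the 8 windows (62.5%) and in 43.1% of 27305 promoters of the same length. ACGTG alone stood in 2 of 8 and in 18.7% of all promoters. EGLN1, which fell, and EGLN2, which rose, both carry ACGTG. A match is a run of letters, not a measured binding site.

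Most of the genes that HIF is known to switch on were lower after abemaciclib. Of 76 tested target genes, 65 were lower and 7 higher and 4 did not pass (94.7% passed, against 77.3% of all tested genes; 2 passed the low-count filter only through the untreated libraries), and their median log2 fold change was -1.36 against -0.01 for all tested genes. A fall of at least 2-fold was seen in 47 of them, while 17.4% of all tested genes fell that much. CA9, a carbonic anhydrase of the cell surface, went from 605 and 522 to 11.8 and 11.99 CPM (-5.56 ± 0.14), and HILPDA, which protects lipid droplets, fell by 4.91 ± 0.26 on the log2 scale. HK1 (0.88 ± 0.03), a hexokinase, and CCND1 (1.66 ± 0.03), cyclin D1 and a reported HIF-2 target in kidney cancer, rose furthest. The list had been drawn up with earlier results on hypoxia genes in these libraries known, so its direction is not independent evidence. Windows of 62 target genes held a core match in 71.0% of cases and ACGTG in 48.4%. Both cores contain a CpG, and the median number of CpG in the window was 23 for these target genes and 26 for the 8 members against 11 for all promoters. The part of CpG content in these shares was not tested.

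Other proteins that act on HIF moved both ways. Of 35 tested regulators of HIF protein stability, translation or activity, 18 were lower and 13 higher and 4 did not pass (median -0.15), so that 88.6% passed against 77.3% of all tested genes. DDIT4, an inhibitor of mTORC1 that is also a HIF target, fell from 2009 ± 28.1 to 160 ± 7.66 CPM (-3.65 ± 0.04). HSP90AA1, the chaperone that shields HIF1A from VHL-independent decay, rose from 664 and 678 to 1331 and 1362 CPM (1.01 ± 0.03), and RPTOR, a subunit of mTORC1, rose by 0.95 ± 0.05.

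Factors of the same bHLH-PAS fold were tested in 11 cases, of which 5 were lower and 3 higher and 3 did not pass (median -0.33). The 72.7% that passed is near the 77.3% of all tested genes. Of the 11, 1 passed the low-count filter only through the treated libraries and was not called. The coactivator NCOA3 (-1.77 ± 0.05) and the clock factor NPAS2 (-1.46 ± 0.04) fell furthest, and the coactivators NCOA2 (0.70 ± 0.13) and NCOA1 (0.25 ± 0.08) rose. The number higher was 1 by DESeq2 and 1 without abemaciclib replicate 1. AHR, the dioxin receptor that also pairs with ARNT, fell by 1.16 ± 0.07 and was named after its values were seen.

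EGLN and HIF1AN belong to a large family of dioxygenases that use 2-oxoglutarate. Of 54 other tested dioxygenases, 29 were lower and 14 higher and 11 did not pass (median -0.26). The share that passed, 79.6%, is near the 77.3% of all tested genes. Among the 8 that are also in the target list 6 were lower and 1 higher, and among the remaining 46 the numbers were 23 lower and 13 higher (median -0.18). P4HA1, a collagen prolyl hydroxylase, fell by 2.30 ± 0.04, and the demethylase gene HR had 58 counts over the untreated and 3 over the treated libraries. HR was the 1 gene of this list that passed the low-count filter only through the untreated libraries. Its place among the 29 lower genes and among the furthest falls is therefore a description. ALKBH8, which modifies transfer RNA (1.78 ± 0.22), and RIOX2, a ribosomal oxygenase (1.20 ± 0.08), rose furthest.

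Genes that supply or remove what these enzymes need moved both ways. Of 37 tested genes of 2-oxoglutarate, succinate, fumarate, iron and ascorbate handling, 20 were higher and 10 lower and 7 did not pass (median 0.20), so that 81.1% passed against 77.3% of all tested genes. SLC23A2, an ascorbate carrier (1.06 ± 0.06), and DLD, a subunit of the 2-oxoglutarate dehydrogenase complex (0.95 ± 0.05), rose furthest. PCBP2, an iron chaperone (-0.95 ± 0.03), and SDHAF1, an assembly factor of succinate dehydrogenase (-0.75 ± 0.10), fell furthest. FH, the fumarate hydratase, went from 30.9 to 41.8 CPM (0.44 ± 0.06, named after its values were seen).

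**Figure D4:**
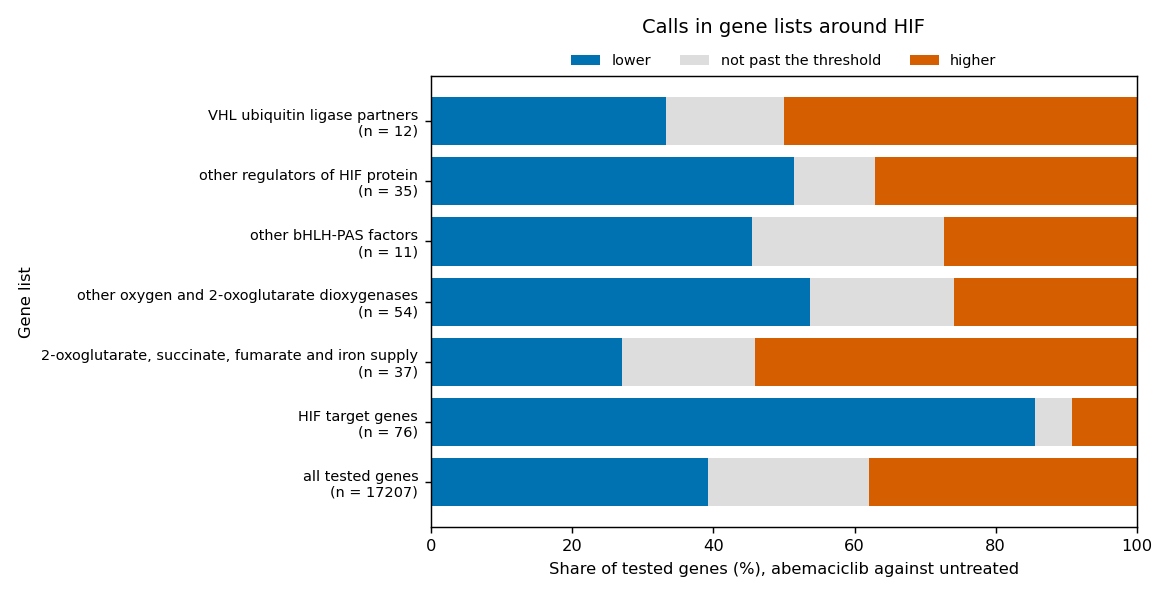
Share of tested genes called lower, not past the threshold and called higher (%, edgeR adjusted p under 0.05) in the 6 gene lists around HIF and in all 17207 tested genes. Of the target genes 85.5% were lower, against 39.3% of all tested genes. The target list was drawn up with earlier results on hypoxia genes in these libraries known, so its direction is not independent evidence. It holds 2 genes that passed the low-count filter only through the untreated libraries.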

How the data were processed

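Each deposited file gave, for 1 library, the expected count of every named gene, per the file headers. An expected count estimates a gene's reads and can be fractional, with no scaling for depth or length. Poly-A RNA was isolated with Trizol and sequenced with TruSeq Stranded mRNA libraries, per the labels' protocols. RSEM 1.3.1, STAR 2.7.2b and GRCh38 are named in the submitters' processing notes. For the annotation release, strand setting and trimming the sources used here give nothing. Reads shared by related or overlapping genes are divided among them, which replicate spread does not show.

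Expected counts were rounded and tested in R 4.3.3 with the quasi-likelihood F test of edgeR 4.0.16 and limma 3.58.1, with robust estimation, filterByExpr, TMM scaling and a model of group alone (2 residual degrees of freedom per gene), with Benjamini-Hochberg adjustment over 17207 genes. Standard errors were taken as the absolute log2 fold change over the square root of F. The fitting step was tested on simulated data. Levels per kilobase are TMM-scaled CPM divided by the union of exons in GENCODE release 29 (GRCh38), which matched 96.4% of identifiers, and this release may differ from that used in counting. The planned EGLN3 to EGLN2 ratio was not computed, since EGLN3 was near 0. The counting interval of EGLN3 covers counting error only, since without molecular identifiers reads may be copies of a molecule.

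Sample titles gave the groups and replicate numbers. Replicates differed by more than sampling noise (chi-square per degree of freedom 3.56 untreated and 1.95 treated), so each library counted once. From each gene list the 2 genes that rose and the 2 that fell furthest past the threshold were named, with other names marked. A gene that this rule would name is not reported here. The members and lists were chosen with earlier results of these data known. AHRR, HIF1A-AS2, EPAS1-AS1 and ARNT2-DT had no unique match by name and were left out.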

Additional observations from a re-analysis of the deposited data

How the results depend on the processing

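The 8 called members were called, in the same direction, under all 11 alternatives: DESeq2 1.42.0, library size or RLE scaling, no low-count filter, 10 counts in every library of a group, mitochondrially encoded genes left out, a replicate block, and leaving out each library. Where a group is left with 1 library, that library is assumed to vary like the others. HIF3A ranged from -2.80 to -2.67 and EPAS1 from -0.21 to -0.11. ARNT2, which was not called, turned to -0.0091 without abemaciclib replicate 1 and ranged up to 0.17 when another library was left out, and the cause was not tested. Of the bHLH-PAS factors, DESeq2 called 5 in all and 1 higher, and leaving out a library gave 1 to 2 higher. The replicate numbers are no sign of pairing (correlation of same-numbered deviations -0.00022), and the replicate block called 13108 genes in all and 8 members. Scaling by library size shifted the median log2 fold change of all tested genes by 0.05. EGLN3, with 0 to 5 counts in a library, was too low to compare.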
